A study of Rattus norvegicus with 6 samples.

Results

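The 10 genes described here encode the core of insulin and insulin-like growth factor (IGF) signalling: the ligand Igf1, the receptors Insr, Igf1r and Igf2r, the adaptors Irs1 and Irs2, the kinases Akt1 and Akt2, and the transcription factors Foxo1 and Foxo3. Every probe set (a group of short probes read together as 1 transcript signal) that the platform annotation gives to 1 of these symbols alone was taken, whatever its values. That gave 24 probe sets of the 31099 on the array, and 10 genes of the 14217 that it measures by name. Irs1 and Irs2 had 1 probe set each, Insr, Igf1r and Igf2r had 2, Igf1, Akt1, Foxo1 and Foxo3 had 3, and Akt2 had 4.

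RNA came from the left ventricles of male Wistar rats, 18 weeks old at collection, that had eaten 1 of 3 diets for 12 weeks from the age of 6 weeks and were fasted overnight beforehand. The diets were Western + DHA (a Western diet with added docosahexaenoic acid, an omega-3 fatty acid), Western, and Control. Each diet had 10 rats and 2 arrays, and each array was hybridised with RNA pooled from 5 rats, so the spread between arrays is that between pools and not that between rats. The strain, sex, age and fast were the same in all 3 groups, with the composition of the diets not given in the sources used here.

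Insulin and IGF1 bind related receptor tyrosine kinases, which phosphorylate the IRS adaptor proteins. The adaptors recruit phosphoinositide 3-kinase, whose lipid product brings AKT kinases to the membrane, where they are activated. Active AKT promotes glucose uptake and protein synthesis and keeps FOXO factors out of the nucleus; in the heart this pathway takes part in growth of the muscle cells and in fuel use. Much of this control acts on proteins through phosphorylation, which RNA levels do not measure.

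For 8 of the 10 genes the RefSeq promoter table of assembly GRCr8 holds a start site, and the 250 bases before it were read. The windows of Insr, Igf1r, Igf2r, Irs1 and Foxo1 were between 68% and 79.6% G or C, and those of Igf1, Akt1 and Akt2 between 46.8% and 54.8%, beside a median of 51.2% over all 33469 windows. Igf2r and Irs1 are shown because each had a probe set with an unadjusted p under 0.05 in a diet comparison and a start site at the outer edge of the annotated gene. The 3 windows of lower G or C content have listed start sites far inside the annotated gene. These lie 2924 bases inside for Igf1, 2521 for Akt1 and 17212 for Akt2, and the windows are not shown. For Insr the start site lies 472 bases inside and for Igf1r 210, and for Foxo1 it is at the outer edge. Capitals mark the GC box GGGCGG, its reverse complement CCGCCC, and the E-box CACGTG, which do not overlap each other in these windows. Igf2r is at chr1:50526628-50526877 on the plus strand and Irs1 at chr9:91053960-91054209, read on the minus strand.
Igf2r: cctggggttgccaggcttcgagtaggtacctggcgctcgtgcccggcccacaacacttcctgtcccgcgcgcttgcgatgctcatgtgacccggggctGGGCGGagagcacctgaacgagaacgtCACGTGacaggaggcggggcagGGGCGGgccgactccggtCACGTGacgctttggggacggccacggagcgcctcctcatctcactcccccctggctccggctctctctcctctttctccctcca
Irs1: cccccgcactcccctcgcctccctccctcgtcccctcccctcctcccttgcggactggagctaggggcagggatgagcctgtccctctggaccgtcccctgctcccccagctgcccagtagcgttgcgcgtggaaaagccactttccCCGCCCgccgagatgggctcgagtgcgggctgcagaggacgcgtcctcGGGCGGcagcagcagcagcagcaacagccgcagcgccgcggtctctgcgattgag
The Igf2r window holds 2 GC boxes and 2 E-boxes, and the Irs1 window 2 GC boxes. A GC box on either strand occurs in 30.5% of all windows and the E-box in 5.59%. The FOXO core GTAAACA, searched on both strands, occurs in 3.21% of all windows, and 1 of the 8 genes, Insr, holds it. These are matches of letters, not measured binding sites.

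Values are log2 expression after RMA normalization, so a difference of 1 is a doubling of signal, and a level of one probe set cannot be set against that of another. Of the 24 probe sets, 7 were dim, meaning that their highest diet mean lay below 5.34, the median of all values on the arrays. The dim ones were 1369051_at (Insr), 1369771_at (Irs1), 1375178_at (Akt1), 1378425_at (Akt2), 1375688_at (Foxo1), and 1376210_at and 1376229_at (Foxo3). All 24 stayed in the test, which was limma's moderated test over all 31042 probe sets that are not array controls.

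None of the 24 probe sets passed an adjusted p of 0.05 in any comparison. Western + DHA against Control had 0 of 24, against 0.00322% of all probe sets (a single one), with a lowest adjusted p of 0.515 among the 24. Western + DHA against Western had 0 of 24, against 0.0% of all, with a lowest of 0.983, and Western against Control had 0 of 24, against 0.0% of all, with a lowest of 1. No gene of the set is therefore called changed, and what follows describes values and unadjusted p-values.

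At an unadjusted p under 0.05, Western + DHA against Control took 6 of the 24 probe sets (25%), beside 8.87% of all probe sets. One was higher in Western + DHA, of Igf1, where 4.17% of all were, and 5 were lower, of Igf2r, Akt1 and Akt2 (3 of them), where 4.69% of all were. Western + DHA against Western took 3 of 24 (12.5%), beside 4.06% of all: the same Igf1 probe set, higher, where 1.99% of all were, and 2 of the Akt2 probe sets, lower, where 2.07% of all were. Western against Control took 1 of 24 (4.17%), of Irs1, lower, beside 2.83% of all (1.61% higher and 1.21% lower). Probe sets of one gene are not separate observations, and the 3 comparisons share arrays.

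**Figure D1:**
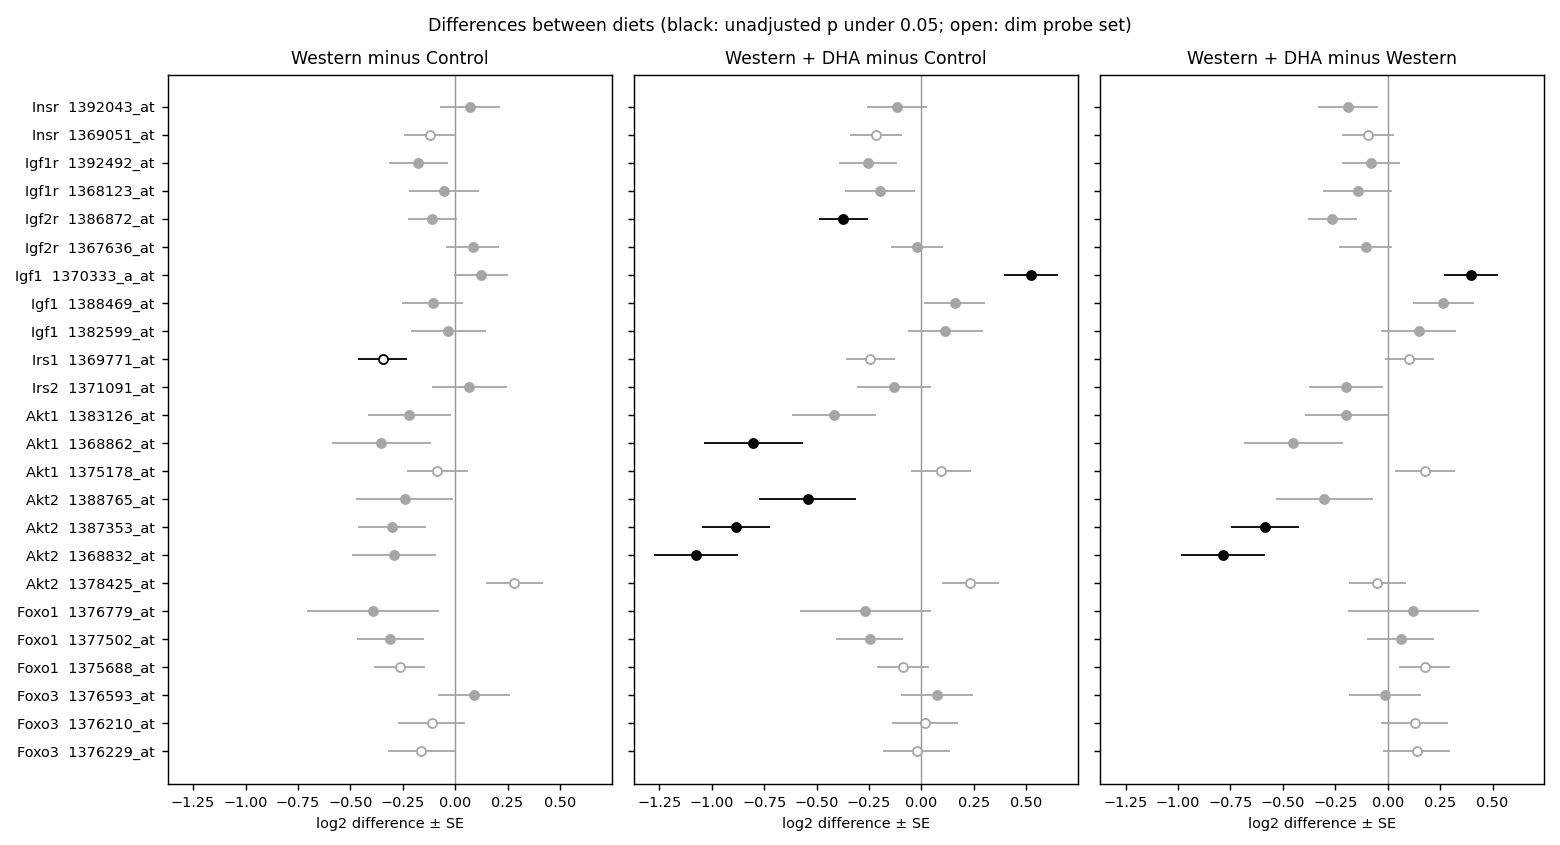
Log2 differences of the 24 probe sets in the 3 comparisons, with bars of 1 standard error from limma; black points have an unadjusted p under 0.05 and open points are dim probe sets. In Western + DHA against Control the Akt2 probe set 1368832_at lies lowest at -1.08 and the Igf1 probe set 1370333_a_at highest at 0.52.

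Igf1 encodes insulin-like growth factor 1, made by the liver for the circulation and also locally in tissues. Its probe set 1370333_a_at read 10.18 and 10.01 on the Western + DHA arrays, 9.77 and 9.62 on the Western arrays, and 9.57 and 9.57 on the Control arrays. Both Western + DHA arrays lay above both arrays of either other diet, and both Western arrays above both Control arrays. The difference was 0.52 ± 0.129 (SE) between Western + DHA and Control, a 1.44-fold higher signal, with an unadjusted p of 0.00336 and an adjusted p of 0.562 by limma. Between Western + DHA and Western it was 0.40 ± 0.129, with an unadjusted p of 0.0139 and an adjusted p of 0.983, and between Western and Control 0.12 ± 0.129, with an unadjusted p of 0.365. Leaving out any 1 array kept the first of these between 0.44 and 0.60.

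The 2 other Igf1 probe sets differed less. Probe set 1388469_at read 8.97 and 8.66 in Western + DHA, 8.59 and 8.51 in Western, and 8.74 and 8.57 in Control, and 1382599_at read 7.34 and 7.06, 7.11 and 6.99, and 7.31 and 6.85 in the same diets. Western + DHA minus Control was 0.16 ± 0.147 for the first and 0.11 ± 0.18 for the second, and Control 1 lay within the Western + DHA values in both. The Igf1 probe sets thus gave the same sign in Western + DHA minus Control and minus Western but not the same size, and with Control 1 left out 1382599_at gave 0.35 against Control, while with Control 2 left out it gave -0.12.

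Macrophages and fibroblasts are known sources of local Igf1, so their markers are given beside it. In bulk tissue, fewer cells of a type and less RNA per cell cannot be told apart. The mean log2 level of the 5 macrophage markers was 6.44 to 6.90 in Western + DHA, 6.41 to 6.48 in Western and 6.40 to 6.67 in Control, and none of the 5 was dim. They did not move together: Western + DHA minus Control was 0.43 for Cd163 and 0.41 for Mrc1, with unadjusted limma p-values of 0.0164 and 0.0203, but 0.09 for Cd68, 0.10 for Csf1r and -0.35 for Adgre1. Adgre1 also differed by -0.63 between Western and Control, with an unadjusted limma p of 0.0155, and none of these passed after adjustment. The 5 fibroblast markers averaged 10.26 to 10.60 in Western + DHA, 10.33 to 10.35 in Western and 10.25 to 10.66 in Control. This mean joins markers that went opposite ways in Western + DHA minus Control, with Pdgfra at 0.37, Lum at 0.25 and Dcn at 0.16, each without overlap of arrays, against Col1a2 at -0.17 and Col1a1 at -0.73. Col1a1 read 8.27 and 7.98 in Western + DHA and 9.53 and 8.19 in Control, where Control 1 was the highest of the 6 arrays.

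Markers of blood cells are given beside Igf1 as well. Of the 4 erythroid markers, Ahsp, Hbb and Alas2 were higher on both Western + DHA arrays than on every other array, by 0.79, 0.51 and 0.38 against Control, with unadjusted limma p-values of 0.00249, 0.00427 and 0.0214, while Slc4a1 was at -0.36. The mean of the 4 was 7.90 to 7.99 in Western + DHA, 7.73 to 7.76 in Western and 7.58 to 7.65 in Control. Of the 3 measured neutrophil markers, S100a9, the one that was not dim, differed by 0.85 in Western + DHA minus Control and by 0.96 in Western minus Control, with unadjusted limma p-values of 0.000428 and 0.000194, and by -0.10 in Western + DHA minus Western. No erythroid or neutrophil marker passed after adjustment. The part of any of these cell types in the Igf1 values was not tested.

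**Figure D2:**
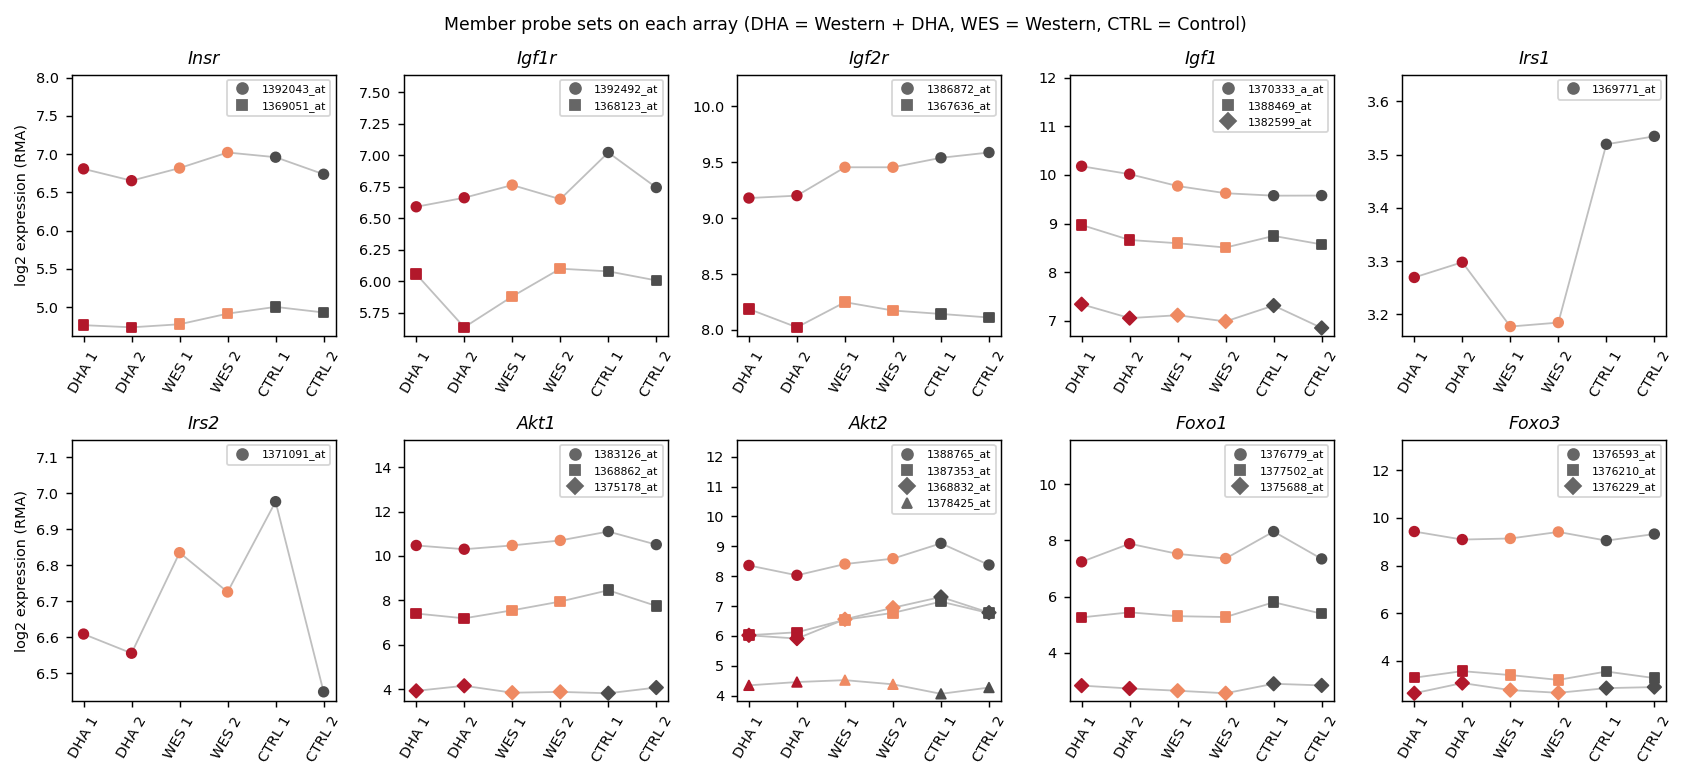
Log2 expression (vertical axes, RMA) of every probe set of the 10 genes on each of the 6 arrays, with lines joining the values of 1 probe set. The Western + DHA arrays of Akt2 probe sets 1368832_at and 1387353_at sit between 5.91 and 6.12, below the Western and Control arrays.

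Of the receptors, Igf2r showed the clearest separation of arrays. Igf2r is the cation-independent mannose 6-phosphate receptor, which carries lysosomal enzymes and takes up IGF2 for breakdown without a kinase of its own. Its probe set 1386872_at read 9.18 and 9.20 in Western + DHA, 9.46 and 9.46 in Western, and 9.54 and 9.59 in Control. The 3 diets did not overlap, with Western + DHA lowest and Control highest. Western + DHA minus Control was -0.37 ± 0.117, with an unadjusted limma p of 0.0125 and an adjusted p of 0.562. That difference stayed between -0.40 and -0.35 when any 1 array was left out. Western + DHA minus Western was -0.26 with an unadjusted p of 0.0532, and Western minus Control -0.11 with an unadjusted p of 0.382. The second Igf2r probe set, 1367636_at, did not show this order: it read 8.19 and 8.02 in Western + DHA, 8.25 and 8.17 in Western, and 8.14 and 8.11 in Control, and Western + DHA minus Control was -0.02 ± 0.125.

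The insulin receptor Insr and the IGF1 receptor Igf1r, the kinases that start the signal, had no unadjusted p under 0.05 in any comparison. Insr probe set 1392043_at read 6.81 and 6.65 in Western + DHA, 6.82 and 7.02 in Western, and 6.96 and 6.74 in Control, and its largest difference was -0.19 ± 0.143, in Western + DHA minus Western. The dim Insr probe set 1369051_at lay lowest in Western + DHA (4.76 and 4.74), between in Western (4.78 and 4.91) and highest in Control (5.00 and 4.93), without overlap, but by only -0.22 ± 0.123 between Western + DHA and Control. Igf1r probe set 1392492_at read 6.59 and 6.66 in Western + DHA, 6.76 and 6.65 in Western, and 7.02 and 6.74 in Control, a Western + DHA minus Control difference of -0.26 ± 0.139. For 1368123_at of Igf1r the Western + DHA arrays lay apart at 6.06 and 5.63, while the Western arrays read 5.88 and 6.10 and the Control arrays 6.08 and 6.01.

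Irs1 and Irs2 encode the adaptor proteins that couple the receptors to phosphoinositide 3-kinase. The Irs1 probe set 1369771_at read 3.27 and 3.30 in Western + DHA, 3.18 and 3.18 in Western, and 3.52 and 3.53 in Control. Its replicate arrays lay close together and the diets did not overlap, but the probe set is dim. Western minus Control was -0.35 ± 0.117, with an unadjusted limma p of 0.0174 and an adjusted p of 1, and Western + DHA minus Control was -0.24 ± 0.117, with an unadjusted p of 0.0697. Western + DHA minus Western was 0.10 ± 0.117. Irs2 read 6.61 and 6.55 in Western + DHA, 6.83 and 6.73 in Western, and 6.98 and 6.45 in Control, where the Control arrays enclosed those of both other diets.

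Akt2, the AKT kinase most tied to insulin-driven glucose uptake, had the largest difference of the 24 probe sets in each comparison with Western + DHA; in Western minus Control, Foxo1 1376779_at lay farther from 0. Probe set 1368832_at read 6.02 and 5.91 in Western + DHA, 6.56 and 6.95 in Western, and 7.31 and 6.78 in Control. Probe set 1387353_at read 6.03 and 6.12 in Western + DHA, 6.54 and 6.77 in Western, and 7.15 and 6.77 in Control. In both, the Western + DHA arrays lay below every other array. The arrays of Western and Control overlapped in both.

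For 1368832_at, Western + DHA minus Control was -1.08 ± 0.2, a 2.1-fold lower signal, with an unadjusted limma p of 0.000586 and an adjusted p of 0.515. For 1387353_at it was -0.88 ± 0.162, with an unadjusted p of 0.000546 and the same adjusted p of 0.515. Against Western the 2 probe sets differed by -0.78 ± 0.2 and -0.58 ± 0.162, with unadjusted p-values of 0.00411 and 0.00661 and an adjusted p of 0.983 for both. Western minus Control was -0.29 and -0.30, with unadjusted p-values of 0.181 and 0.101. The F test over the 3 diets gave unadjusted p-values of 0.00159 and 0.00165 for these probe sets, and it took 6 of the 24 at an unadjusted p under 0.05, beside 5.07% of all, and 0 of 24 after adjustment, beside 0.00322% of all.

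The Akt2 probe set with the highest signal, 1388765_at, read 8.36 and 8.03 in Western + DHA, 8.41 and 8.59 in Western, and 9.10 and 8.38 in Control. Western + DHA again lay lowest, but Control 1 stood well above the other 5 arrays and Control 2 lay just above Western + DHA 1. Western + DHA minus Control was -0.54 ± 0.232, with an unadjusted limma p of 0.0462 and an adjusted p of 0.563, and it was -0.18 without Control 1 and -0.90 without Control 2. The dim probe set 1378425_at went the other way, at 4.35 and 4.46 in Western + DHA, 4.52 and 4.38 in Western, and 4.06 and 4.27 in Control, a difference of 0.23 ± 0.135 in Western + DHA minus Control. Across the 6 arrays 1368832_at and 1387353_at followed each other (r = 0.99), while 1378425_at ran against the 3 others (r from -0.80 to -0.66), a description of 6 arrays that share their normalization.

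Akt1, the AKT kinase most tied to cell growth and survival, gave the same order of diets in its brighter probe sets. Probe set 1368862_at read 7.41 and 7.19 in Western + DHA, 7.55 and 7.95 in Western, and 8.45 and 7.75 in Control, and 1383126_at read 10.47 and 10.30, 10.47 and 10.70, and 11.10 and 10.51 in the same diets. In both, Western + DHA lay below Control without overlap, and Control 1 was the highest array. Western + DHA minus Control was -0.80 ± 0.236 for the first, with an unadjusted limma p of 0.00899 and an adjusted p of 0.562, and -0.42 ± 0.198 for the second, with an unadjusted p of 0.0676. Against Western the values were -0.45 ± 0.236 and -0.20 ± 0.198, and the dim probe set 1375178_at gave 0.09 ± 0.144 against Control.

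The size of the Akt differences from Control depended on which Control array was kept. Without Control 1, Western + DHA minus Control was -0.81 for 1368832_at and -0.69 for 1387353_at of Akt2. It was -0.45 and -0.12 for 1368862_at and 1383126_at of Akt1. Without Control 2 these 4 values were -1.34, -1.07, -1.15 and -0.71. Western minus Control came close to 0 without Control 1, at -0.03, -0.11 and 0.12 for Akt2 probe sets 1368832_at, 1387353_at and 1388765_at and 0.00 and 0.08 for Akt1 probe sets 1368862_at and 1383126_at. Without Control 2 it was -0.55, -0.49, -0.60, -0.71 and -0.51 in the same order. Over the 24 probe sets, the median Western + DHA minus Control difference was -0.05 without Control 1 and -0.23 without Control 2. Over all tested probe sets it was 0.01 and 0.05. The median Western minus Control difference of the 24 was -0.02 without Control 1 and -0.22 without Control 2, beside 0.005 and 0.02 over all. Western + DHA minus Western does not use the Control means, and there Akt2 1368832_at stayed between -0.98 and -0.59 and 1387353_at between -0.70 and -0.47 when any 1 array was left out.

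**Figure D3:**
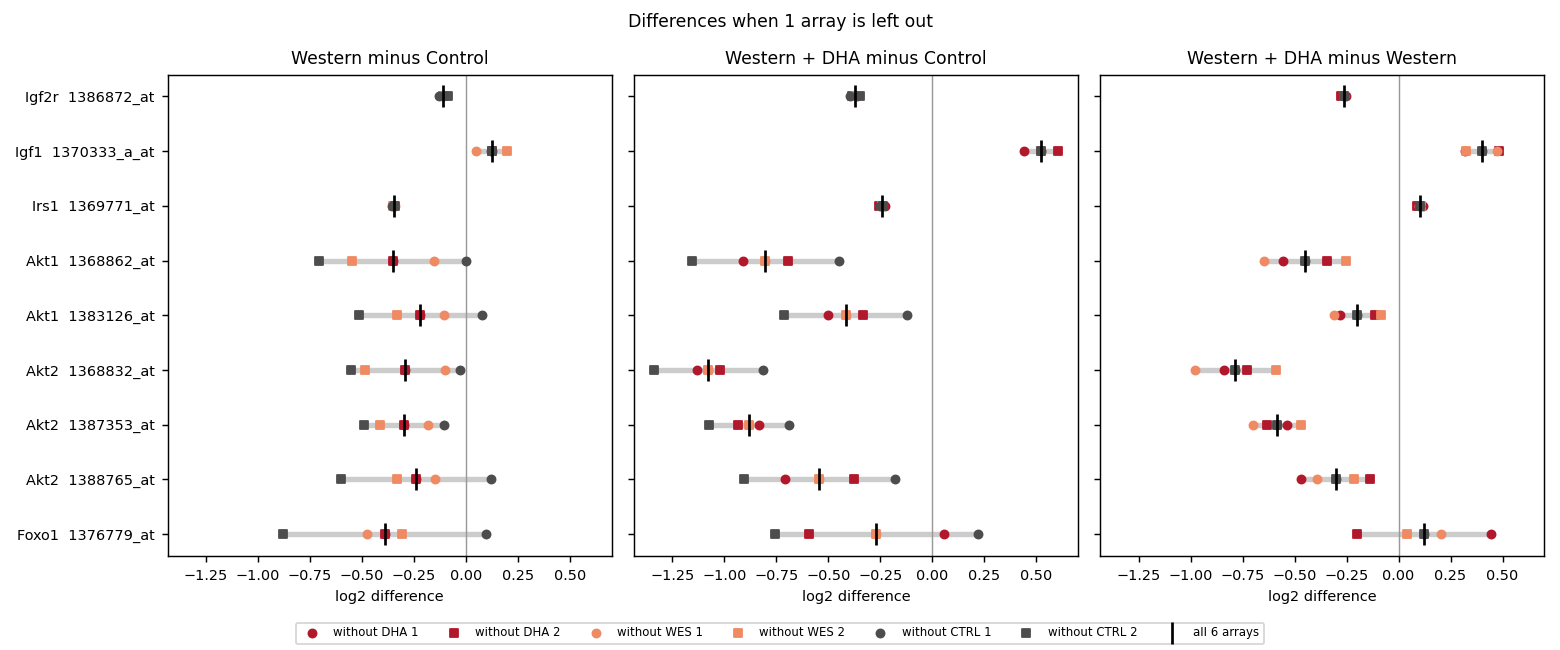
Log2 differences of 9 probe sets with all 6 arrays (black bars) and with each array left out in turn (coloured points), in the 3 comparisons. For Akt1 1368862_at, Western + DHA minus Control spans -1.15 to -0.45 with the Control arrays at both ends, while Igf2r 1386872_at stays between -0.40 and -0.35.

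Control 1 was also the highest array in some measures of RNA and of other cells, but not in all. The difference between the 3' and 5' array control probes for Gapdh, which grows as RNA is degraded or copied incompletely, was 0.45 and 0.47 in Western + DHA, 0.36 and 0.41 in Western, and 0.68 and 0.30 in Control, with Control 1 highest. For hexokinase it was 2.27 and 2.04 in Western + DHA, 2.25 and 2.27 in Western, and 2.28 and 1.89 in Control. For beta-actin it was 1.87 and 1.52 in Western + DHA, 1.48 and 1.54 in Western, and 1.82 and 1.49 in Control, with Western + DHA 1 highest. The mean of the 4 smooth muscle markers, 3 of them not dim, was 6.26 to 6.42 in Western + DHA, 6.36 to 6.74 in Western and 6.60 to 6.79 in Control. This mean was highest on Control 1, but of its markers only Acta2 was, at 7.27. Myh11, Tagln and the dim Cnn1 were highest on Western 2, at 8.26, 8.38 and 3.87. The mean of 9 heart muscle cell markers out of 10 listed lay between 13.44 and 13.50 on all 6 arrays, and none was dim. The part of RNA quality or smooth muscle in the Akt differences was not tested.

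Foxo1 and Foxo3 encode forkhead factors that AKT holds out of the nucleus and that switch on genes of protein breakdown and fasting metabolism. Foxo1 probe set 1376779_at read 7.24 and 7.89 in Western + DHA, 7.52 and 7.36 in Western, and 8.32 and 7.34 in Control. The Control arrays lay far apart and enclosed the Western arrays. Western minus Control was -0.39 ± 0.313 and Western + DHA minus Control -0.27 ± 0.313. Probe set 1377502_at gave -0.31 ± 0.16 and -0.25 ± 0.16 in the same comparisons, and the dim 1375688_at gave -0.26 ± 0.122 and -0.09 ± 0.122. All 3 Foxo1 probe sets were below 0 in both, and the lowest unadjusted p among them was 0.0617.

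Foxo3 gave no common direction. Its bright probe set 1376593_at read 9.42 and 9.09 in Western + DHA, 9.13 and 9.41 in Western, and 9.04 and 9.32 in Control, and the 3 diets overlapped. Its differences were 0.07 ± 0.172 in Western + DHA minus Control, -0.01 ± 0.172 in Western + DHA minus Western and 0.09 ± 0.172 in Western minus Control. The dim probe sets 1376210_at and 1376229_at differed by between -0.16 and 0.14 in the 3 comparisons.

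Over the 24 probe sets the median difference was -0.16 in Western + DHA minus Control, -0.06 in Western + DHA minus Western and -0.12 in Western minus Control, beside 0.03, 0.01 and 0.01 over all tested probe sets. Differences below 0 made up 17, 14 and 18 of the 24 in the same order, beside 43.4%, 46.9% and 47.8% of all. The 2 diets' arrays did not overlap for 12 of the 24 in Western + DHA against Control (2 higher, 10 lower), beside 37.2% of all probe sets (22.0% higher, 15.1% lower). For Western + DHA against Western it was 14 (5 higher, 9 lower), beside 35.5% of all (19.5% higher, 16.0% lower), and for Western against Control 9 (3 higher, 6 lower), beside 30.9% of all (17.5% higher, 13.5% lower). These counts describe probe sets that share genes and arrays, and no test was made of the set as a whole.

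**Figure D4:**
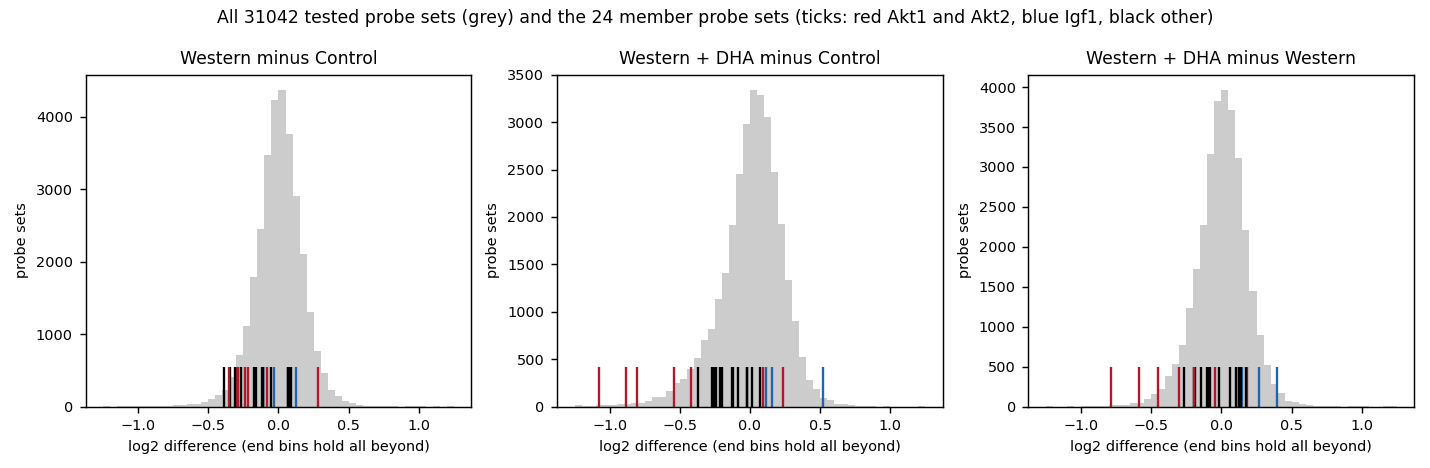
Distribution of log2 differences over all 31042 tested probe sets (grey, vertical axis in probe sets) with the 24 probe sets as ticks, red for Akt1 and Akt2, blue for Igf1 and black for the rest. In Western + DHA minus Control the lowest ticks, at -1.08, -0.88 and -0.80, belong to Akt2 and Akt1, and the highest, at 0.52, to Igf1.

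Other genes of the pathway were followed through 5 lists with 87 genes, of which 78 were measured, each by its probe set with the highest mean. None passed the adjusted test in any comparison, beside 0.0% of all 14217 genes measured this way in each. At an unadjusted p under 0.05, Western + DHA against Control took 3 of 78, all lower (3.85%, beside 8.45% of all genes, 3.99% lower), Western + DHA against Western took 0 of 78 (beside 3.52%, 1.46% lower), and Western against Control took 1 of 78, lower (1.28%, beside 1.98%, 0.591% lower). The median difference of the 78 was -0.04 in each comparison.

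The 3 genes of Western + DHA against Control were Igf2, Foxo4 and Ddit4. Igf2, a fetal growth factor that Igf2r clears, read 7.00 and 6.66 in Western + DHA, 7.17 and 7.37 in Western, and 7.64 and 7.14 in Control, a difference of -0.56 ± 0.195 in Western + DHA minus Control with an unadjusted limma p of 0.0207. Foxo4, another forkhead factor controlled by AKT, read 6.89 and 6.79 in Western + DHA, 7.03 and 7.25 in Western, and 7.79 and 7.25 in Control, a difference of -0.68 ± 0.186 with an unadjusted p of 0.00611. In both genes Western + DHA lay below Control without overlap and Control 1 was the highest array, as for Akt1. Ddit4, an inhibitor of the growth kinase mTOR, read 7.44 and 7.41 in Western + DHA, 7.41 and 7.50 in Western, and 7.96 and 7.82 in Control, so that both Western-based diets lay below Control. Its differences were -0.47 ± 0.123 in Western + DHA minus Control and -0.43 ± 0.123 in Western minus Control, with unadjusted p-values of 0.00511 and 0.00772 and adjusted p-values of 0.562 and 1.

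Among the 22 measured genes that act with or after AKT, 16 were below 0 in Western + DHA minus Control with a median of -0.15, 15 in Western + DHA minus Western with a median of -0.06, and 18 in Western minus Control with a median of -0.09. Over all genes, 43.3%, 46.7% and 47.9% were below 0 in the same order. None of the 22 had an unadjusted p under 0.05. Examples are Tbc1d4, which AKT phosphorylates to release glucose transporters, at -0.28 ± 0.136 in Western + DHA minus Western, Tsc1, a brake on mTOR, at -0.27 ± 0.142 in Western + DHA minus Control, and Gsk3b, a kinase that AKT inhibits, at -0.22 ± 0.169 in Western minus Control. Others lay above 0, such as Rps6kb1, the S6 kinase activated by mTOR, at 0.22 ± 0.137 in Western + DHA minus Western, and Tbc1d4 itself at 0.15 ± 0.136 in Western minus Control. In Western + DHA against Western the arrays did not overlap for 5 of the 22 in each direction. Of all probe sets, and not of the brightest per gene as counted for the 22, 19.5% were higher and 16.0% lower without overlap in that comparison.

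The 18 measured adaptors and brakes of the receptors were split evenly, with 9 below and 9 above 0 in Western + DHA against either other diet, and Grb14, an adaptor that inhibits the insulin receptor, was at -0.14 ± 0.119 in Western + DHA minus Control. Of 20 measured FOXO partners and targets, 15 were below 0 in Western + DHA minus Control with a median of -0.04, among them Trim63, a ubiquitin ligase of muscle protein breakdown, at -0.25 ± 0.125. The 12 measured ligands and binding proteins had a median of -0.06 there, with 7 below 0. The 6 genes of the growth hormone axis, which drives Igf1 in liver, had a median of 0.05 in the same comparison. The growth hormone receptor Ghr was at 0.04 ± 0.125 there, with overlapping arrays. Its arrays did not overlap in Western minus Control, at 0.19 ± 0.125, or in Western + DHA minus Western, at -0.15 ± 0.125. The unadjusted limma p-values of these were 0.167 and 0.276.

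For the 3 genes whose brightest probe set had the widest range over the 6 arrays, the genes with the most similar profile were sought among 9305 genes that were not dim on average. Akt2 probe sets 1368832_at (range 1.39) and 1387353_at (range 1.12) were not used here. In each of the 3 probe sets used, Control 1 was the highest array. Akt2 (probe set 1388765_at, range 1.07) was most like Dcaf8, Gabarapl1 and Vars2, with r of 0.9985, 0.9982 and 0.9977. Akt1 (1383126_at, range 0.80) was most like Cdk2ap1, Lbh and Pfkl, with r of 0.9995, 0.9986 and 0.9977, and Foxo1 (1376779_at, range 1.08) was most like Entpd5, Zmynd8 and Ppif, with r of 0.981, 0.980 and 0.969. An r of at least 0.9 was reached by 1120 of the 9305 genes with Akt2 and by 1009 with Akt1, against 42 with Foxo1. For the 7 other genes of the set it was reached by between 28 (Irs1) and 305 (Insr). The arrays share their normalization, and the likeness says nothing of shared control.

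Across the whole array, the 6 arrays had medians between 5.33 and 5.36, and the arrays of a diet correlated at 0.993 for Western + DHA, 0.996 for Western and 0.993 for Control over all probe sets, which are not independent replicates. Log2 differences had a median standard error of 0.144, and the number of arrays limits the precision. Atrial markers, 4 of 4 measured, averaged 9.49 and 9.24 in Western + DHA, 7.18 and 9.54 in Western, and 8.26 and 8.49 in Control. They did not move together: Western + DHA minus Control was 1.81 for Myl7, 1.68 for Myl4 and 0.68 for Sln, but -0.22 for Nppa. None passed after adjustment, and Myl7 read 5.39 and 9.65 on the Western arrays. The part of atrial tissue in the values above was not tested.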

How the data were processed

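Messenger RNA was measured on 6 Affymetrix arrays, 2 for each of 3 diets, each a pool of 5 rats with 5 µg of total RNA per the labels' protocols. The log2 values of 31099 probe sets are the authors' deposited RMA output (run in R 2.11.0 according to the submitters' processing notes), with earlier steps not given in the sources used here. RMA adjusts the arrays to one another, so total RNA is not measured. The authors also deposited log2 differences, p-values and adjusted p-values. For the 24 probe sets their log2 differences matched those computed here within 6e-09 and their p-values within 0.000229.

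After removal of 57 array controls, limma 3.58.1 (R 4.3.3) was fitted to all 6 arrays with a mean for each diet (3 residual and 5.28 prior degrees of freedom). The p-values are two-sided, and adjusted values are Benjamini-Hochberg over the 31042 probe sets of each comparison, called at 0.05. Probe sets were named by the platform annotation, with symbols brought up to date by Entrez identifier against RefSeq GRCr8: 20826 had 1 symbol, 436 several and 9780 none. Genes outside the 10 were read by their brightest probe set. From each pathway list, up to 4 genes per comparison with the smallest p among those not dim whose arrays did not overlap qualified to be named, and a part of these is given. The genes, lists and markers were chosen with earlier results of these data known.

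The labels do not say whether replicate numbers mark a shared batch, and the main fit did not pair the arrays. Replicate 1 minus replicate 2 correlated across probe sets at -0.228 for Western + DHA with Western, 0.202 for Western + DHA with Control and -0.206 for Western with Control. These values cannot show whether a batch was shared. The fit was checked on simulated data. Alternatives tried were the replicate number as a block, dropping dim probe sets, other normalizations and priors, array weights, fits of 4 arrays, keeping the controls, the brightest probe set alone, averaging probe sets by gene, a threshold of 0.1 and leaving out each array. A fit without Control 1 and Western + DHA 2 together was added after seeing the data.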

Additional observations from a re-analysis of the deposited data

How the results depend on the processing

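Leaving out 1 array changed the sign of 9 of the 24 differences in Western + DHA minus Control, 7 in Western + DHA minus Western and 11 in Western minus Control, and no other alternative changed a sign outside the values given here. No probe set of the 10 genes passed the adjusted threshold of 0.05 under any alternative. Without 1 array, Western + DHA minus Control ranged from -0.41 to 0.013 for Igf1r 1368123_at, -0.10 to 0.060 for Igf2r 1367636_at, -0.12 to 0.35 for Igf1 1382599_at, -0.39 to 0.13 for Irs2 1371091_at, -0.035 to 0.22 for Akt1 1375178_at, -0.76 to 0.22 for Foxo1 1376779_at, -0.12 to 0.15 for Foxo3 1376210_at, -0.24 to 0.19 for Foxo3 1376229_at and -0.093 to 0.24 for Foxo3 1376593_at. In Western + DHA minus Western it was -0.35 to 0.067 for Igf1r 1368123_at, -0.12 to 0.021 for Akt2 1378425_at, -0.20 to 0.45 for Foxo1 1376779_at, -0.028 to 0.15 for Foxo1 1377502_at, -0.0087 to 0.27 for Foxo3 1376210_at, -0.076 to 0.35 for Foxo3 1376229_at and -0.18 to 0.15 for Foxo3 1376593_at. In Western minus Control it was -0.040 to 0.18 for Insr 1392043_at, -0.16 to 0.057 for Igf1r 1368123_at, -0.26 to 0.20 for Igf1 1382599_at, -0.20 to 0.33 for Irs2 1371091_at, -0.71 to 0.00040 for Akt1 1368862_at, -0.21 to 0.044 for Akt1 1375178_at, -0.51 to 0.076 for Akt1 1383126_at, -0.60 to 0.12 for Akt2 1388765_at, -0.88 to 0.097 for Foxo1 1376779_at, -0.25 to 0.025 for Foxo3 1376210_at and -0.049 to 0.23 for Foxo3 1376593_at. A fit without 1 array leaves 1 array in a diet, so counts at an unadjusted p under 0.05 are not given for these fits.

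Quantile normalization again gave 0.034 for Igf2r 1367636_at and -0.066 for Foxo3 1376210_at in Western + DHA minus Control, and cyclic loess 0.0040 and -0.058. Without Control 1 and Western + DHA 2 together, a choice made after seeing the data, that comparison gave 0.070 for Insr 1392043_at, 0.050 for Igf1r 1368123_at, 0.076 for Igf2r 1367636_at, 0.16 for Irs2 and -0.15 for Akt1 1375178_at, while Akt2 1368832_at was -0.76. The other Akt probe sets that are not dim differed in size. Western + DHA 1 and Control 2, the arrays left, read 6.03 and 6.77 for Akt2 1387353_at and 8.36 and 8.38 for Akt2 1388765_at. For Akt1 they read 7.41 and 7.75 at 1368862_at, and 10.47 and 10.51 at 1383126_at. With probe sets averaged by gene, Western + DHA minus Western was 0.084 for Foxo3, and Western minus Control was -0.025 for Insr, -0.0055 for Igf1 and -0.062 for Foxo3. In Western against Control, 0 of the 17 probe sets left without the dim ones had an unadjusted p under 0.05, beside 1.76% of all. The Irs1 probe set is itself dim and was removed. Under quantile normalization, cyclic loess or an intensity trend, 2 of the 24 had such a p, beside 2.79%, 2.89% and 2.90% of all. With 1 probe set per gene, 3 of 10 had one in Western + DHA against Control, beside 8.48% of all genes. Over all probe sets, Western + DHA against Control called 0 with 1 probe set per gene or 4 arrays and 2 at an adjusted p under 0.1, Western + DHA against Western called 1 under quantile normalization, median centring, an intensity trend, array weights or an adjusted p under 0.1, and the F test called 0 with 1 probe set per gene. With the replicate block the counts of the 24 at an unadjusted p under 0.05 stayed at 6, 3 and 1, beside 8.14%, 3.62% and 2.45% of all. The calls over all probe sets stayed at 1, 0 and 0. Both are in the order Western + DHA against Control, Western + DHA against Western and Western against Control. The causes of these changes were not tested. Each diet has 2 pools, and 7 of the 24 probe sets are dim, which limits what these arrays can show.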
